A study of Mus musculus with 8 samples.

Results

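The genes described here are 39 mouse genes of the interferon response: 8 interferon regulatory factors (IRFs), the transcription factor gene Stat2, and 30 genes known to be induced by interferon. They were taken by gene symbol from a list, and all 39 were found among the 43346 genes of the count table. RNA was sequenced from bone fractions enriched for osteocytes, the cells that sit within mineralised bone. The bones were the femur, a long bone, and the frontal and parietal bones of the skull vault (the calvaria), from C57BL/6 mice aged 12 weeks with no treatment given. There were 3 femur libraries (numbers 1, 2 and 4), 3 frontal libraries (1, 2 and 4) and 2 parietal libraries (2 and 4). Whether each library is a separate animal is not in the labels, so p-values here measure the spread among these 8 libraries alone, and that spread may be technical.

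Interferons are secreted proteins that bind receptors on the cell surface, whose kinases then phosphorylate transcription factors, STAT2 among them. STAT2 and IRF9 are part of a complex that binds a DNA element called the ISRE (interferon-stimulated response element), while the response to interferon gamma runs mainly through a different element, GAS. The induced genes encode proteins that detect, cut or bind foreign RNA, block virus entry and release, or adjust the signal itself, and in bone both interferon classes are known to restrain osteoclast formation.

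The promoters of members that were higher, lower or did not pass the test between the skull bones and the femur were first compared by sequence, since the ISRE is the element the group is known for. RefSeq promoters (build GRCm38.p6, 250 bases before to 50 after the start) were found for 33 members and searched for the ISRE core, GAAA, any 2 bases and GAAA again, which reads TTTC, any 2 bases and TTTC when it lies on the other strand. The core was present in 17 of these 33 (51.5%), against 3.99% of the promoters of all 27025 genes in the table. The following stretches show members of each kind, with the core or overlapping cores in capitals. They run 5′ to 3′ on the strand of the gene and end before its RefSeq start. For Gbp2 and Gbp3 that start lies within the gene span given further below, so their stretches reach into that span. Isg15 and Bst2 were higher in the skull bones and carry overlapping cores.
Isg15: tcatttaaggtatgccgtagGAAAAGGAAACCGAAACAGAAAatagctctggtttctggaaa
Bst2: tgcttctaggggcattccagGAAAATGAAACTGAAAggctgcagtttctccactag
Gbp7 was also higher, Gbp3 beside it did not pass the test, and Gbp2, the next listed member in the cluster (Gbp2b lies between), was lower; each carries the core.
Gbp7: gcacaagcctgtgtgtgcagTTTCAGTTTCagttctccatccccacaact
Gbp3: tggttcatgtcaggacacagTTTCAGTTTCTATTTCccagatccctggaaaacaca
Gbp2: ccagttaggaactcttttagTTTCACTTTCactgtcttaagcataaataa
Ifit1 and Ifit3 were lower and each carries separate cores.
Ifit1: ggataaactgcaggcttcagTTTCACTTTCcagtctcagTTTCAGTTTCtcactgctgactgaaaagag
Ifit3: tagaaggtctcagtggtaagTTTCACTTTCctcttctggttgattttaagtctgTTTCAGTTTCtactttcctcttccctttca
Rsad2 was higher in the skull bones, and Stat2 was lower, with low values in the parietal libraries.
Rsad2: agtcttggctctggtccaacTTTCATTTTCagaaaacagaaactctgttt
Stat2: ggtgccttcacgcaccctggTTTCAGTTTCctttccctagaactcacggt
The stretches lie at chr4:156200855-156200916, minus strand (Isg15), chr8:71537567-71537622, minus strand (Bst2), chr3:142530263-142530312, plus strand (Gbp7), chr3:142559979-142560034, plus strand (Gbp3) and chr3:142620584-142620633, plus strand (Gbp2). The others lie at chr19:34640765-34640833, plus strand (Ifit1), chr19:34583353-34583436, plus strand (Ifit3), chr12:26456543-26456592, minus strand (Rsad2) and chr10:128270256-128270305, plus strand (Stat2). Of the 17 members with the core, 6 were higher in the skull bones than in the femur, 5 lower and 6 did not pass, and of the 16 without it 4 were higher, 4 lower and 8 did not pass, where 61% of all genes tested were called (29.6% higher and 31.4% lower). The GAS letters TTCNNNGAA, which read the same on both strands, were in 11 of the 33 promoters (33.3%) and in 9.55% of all. A match describes the letters in this window and does not show that a factor binds there. Dhx58, Oas2, Mx1, Mx2, Usp18 and Parp14 had no entry in the promoter table.

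The libraries held 6259229 to 13461622 counts in genes. Values below are CPM (counts relative to a library total adjusted by TMM, the trimmed mean of M values), and differences are log2 fold changes with their standard error (SE) from edgeR's quasi-likelihood test over 15511 genes, called at an adjusted p under 0.05. The labelled cell type was checked by its markers: 7 osteocyte genes (Dmp1, Sost and others) took 2.29 to 4.54% of the counts in femur libraries and 0.0730 to 0.136% in skull libraries, with none at 0. Erythroid and granulocyte markers went the other way: 8 erythroid genes took 1.15 to 2.81% in femur and 6.86 to 10.9% in skull libraries, and 9 granulocyte genes 1.60 to 4.17% and 6.13 to 8.35%. All 8 erythroid genes and 6 of the 9 granulocyte genes were called higher in the calvaria, against 29.6% of all genes tested. In such bulk fractions fewer cells of a type and less RNA per cell cannot be told apart, and the part of the cell mixture in the results below was not tested.

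Between the calvaria (the mean of frontal and parietal bone) and the femur the interferon genes did not move as a block. Of the 39 members, 10 were higher and 12 lower in the calvaria, and 17 did not pass, so 22 of 39 passed (56.4%) in a comparison that called 61% of all genes tested (29.6% higher and 31.4% lower). The median log2 fold change of the members was 0.01, as for all genes (0.01), with a range from -2.65 (Oasl1) to 1.88 (Isg20). The calvarial libraries all lay above the femur libraries for 7 members and all below for 6, where 53.5% of all genes were separated in this way (26% above and 27.5% below). The split depended on scaling: upper quartile factors, which moved the median of all genes to 0.19, gave 13 higher and 7 lower, and spike-in scaling, which moved it to -0.84, gave 0 higher and 3 lower (0 and 9 at an unadjusted p under 0.05 by edgeR). Without femur library 1 the number higher was 6. Without parietal library 4, which leaves 1 parietal library, the members' median was 0.01 and that of all genes -0.02. Of all genes tested, upper quartile factors called 5555 higher and 4135 lower, and spike-in scaling 30 higher and 3113 lower. Without femur library 1, 4008 of 15443 genes were higher. All members passed the filter on low counts, and each reached its level of 1.09 CPM in at least 2 libraries of every bone.

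**Figure D1:**
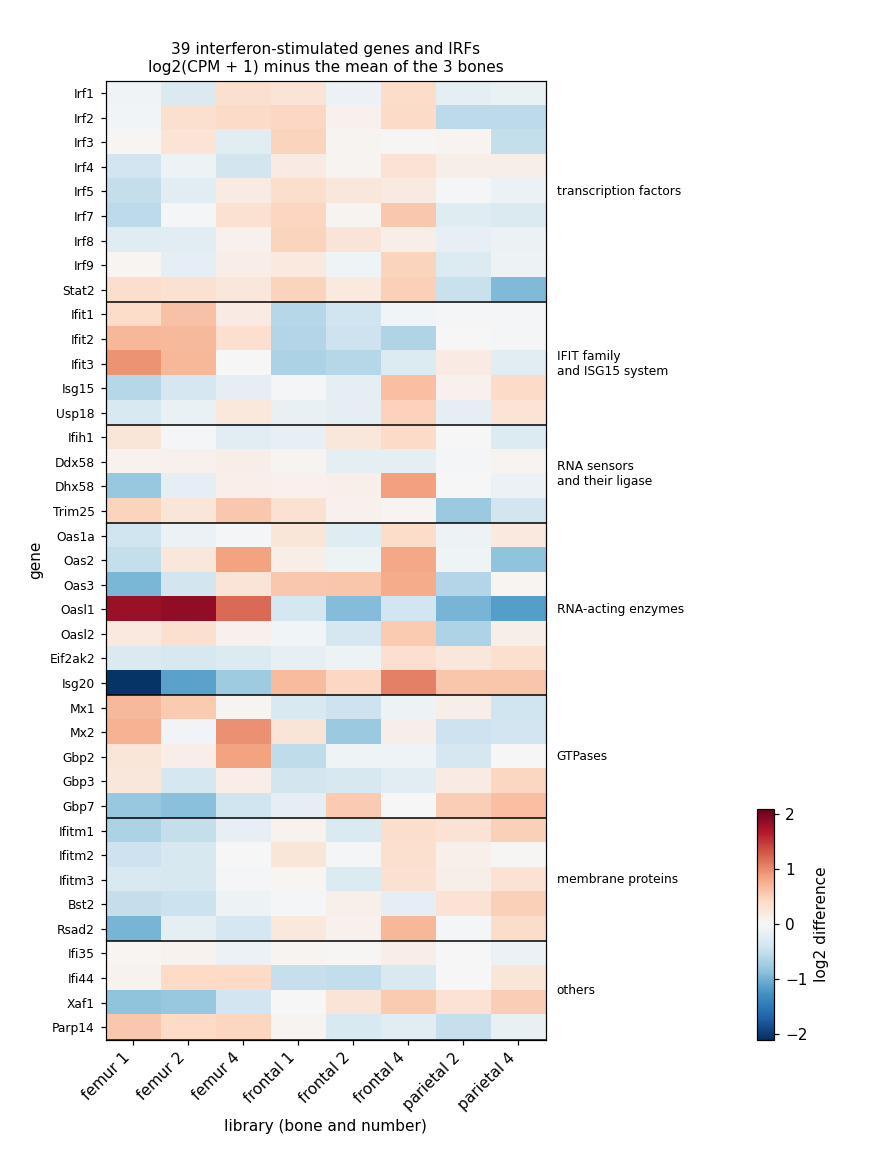
Each cell shows log2(CPM + 1) of 1 member (rows, ordered by role) in 1 library (columns), minus the mean of the 3 bone means of that gene. Red is above and blue below that mean; Oasl1 is red in the 3 femur libraries only and Isg20 blue in them only, while most other rows are pale.

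RNA-acting enzymes held both extremes. Oasl1, a member of the oligoadenylate synthetase family that lacks the enzyme activity and is known to restrain translation of Irf7 mRNA, lies at chr5:114923240-114937915 (plus strand, GRCm38). It measured 41.0, 42.3 and 26.2 CPM in femur (libraries 1, 2 and 4), 8.23, 5.34 and 7.98 in frontal bone (1, 2 and 4) and 5.03 and 4.36 in parietal bone (2 and 4). Every skull library lay below every femur library, with a log2 fold change of -2.65 ± 0.21 (SE; edgeR adjusted p = 1.03e-06). The call held under all 17 alternative settings tried. Isg20, an exonuclease that degrades single-stranded RNA, lies at chr7:78913424-78920396. Its levels, in the same order of libraries, were 41.5, 80.8 and 105 CPM in femur, 281, 239.9 and 368 in frontal and 266 and 266 in parietal bone. Every skull library was above every femur library (1.88 ± 0.26, adjusted p = 8.97e-05). Within the femur, library 1 was lowest and library 4 highest, as they were in the erythroid and granulocyte marker shares. Other members had this order too, among them Irf5, Irf7, Oas3 and Xaf1, while Rsad2 and Parp14 did not. Its cause was not tested.

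The kinase Eif2ak2 (PKR), which stops translation when it binds viral RNA duplexes, measured 13.6, 13.2 and 13.7 CPM in femur, 14.9, 15.7 and 21.99 in frontal and 20.1 and 21.8 in parietal libraries. It was higher in the calvaria by a log2 of 0.50 ± 0.17 (adjusted p = 0.0224) with no overlap, but no longer passed without femur library 1, without femur library 2 or without parietal library 4, and turned to -0.32 with spike-in scaling. The oligoadenylate synthetases make the second messenger that activates RNase L, and none of those listed passed. Oas3 was at 6.18, 9.61 and 15.7 CPM in femur, 19.6, 19.9 and 23.0 in frontal and 8.08 and 13.4 in parietal bone, so that the frontal libraries stood above both other bones. Oas1a was at 7.38, 9.23 and 10.01 CPM in femur, 12.3, 8.39 and 13.6 in frontal and 9.38 and 11.9 in parietal bone, with overlap throughout. Oas2 ranged from 1.55 to 7.22 CPM and Oasl2 from 9.23 to 22.3 CPM over the 8 libraries, also with overlap.

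**Figure D2:**
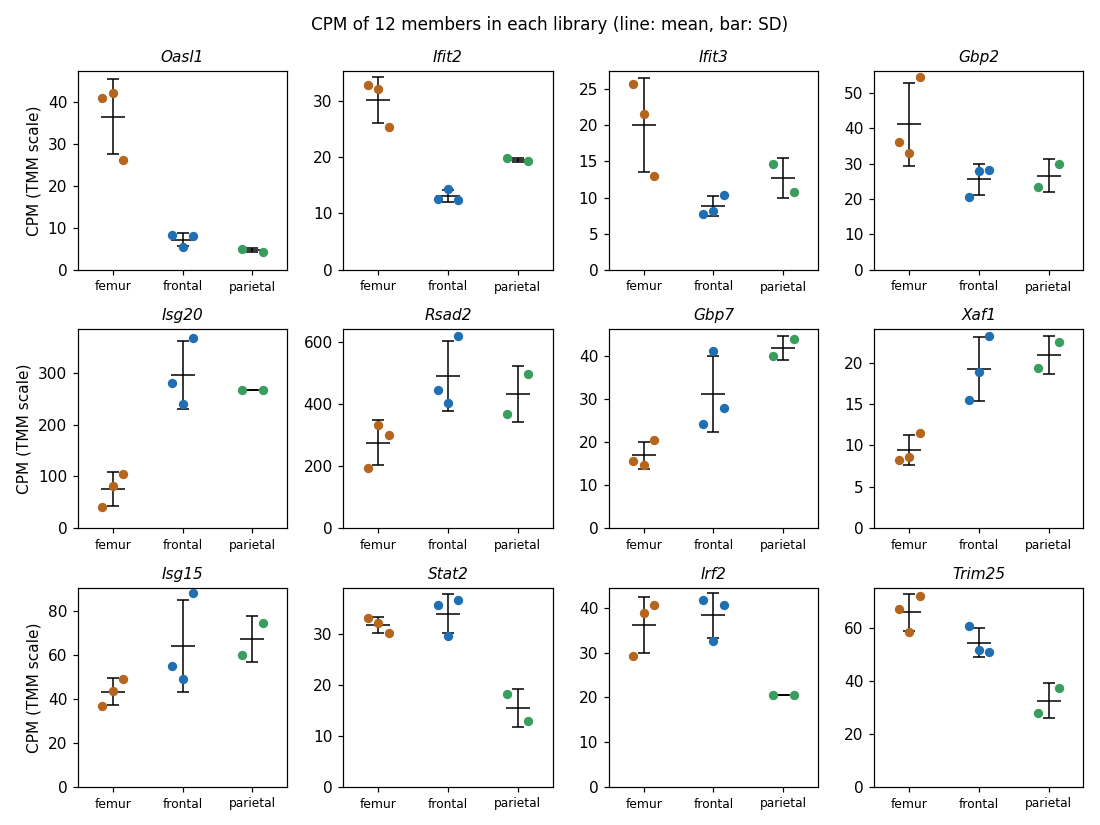
CPM (vertical axis, from 0) of 12 members in each library, grouped by bone; points are libraries, the line is the mean and the bar the SD. Oasl1 and Ifit2 are highest in femur, Isg20, Gbp7 and Xaf1 lowest in femur, and Stat2, Irf2 and Trim25 lowest in the 2 parietal libraries.

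In the IFIT family and ISG15 system, 3 of 5 members were lower, 1 was higher and 1 did not pass, against 31.4% lower and 29.6% higher among all genes. The IFIT proteins bind foreign RNA and block its translation, and their genes lie together on chromosome 19. Ifit2 (chr19:34550694-34576419) measured 32.8, 32.1 and 25.4 CPM in femur, 12.5, 14.4 and 12.3 in frontal and 19.8 and 19.3 in parietal libraries. The bones did not overlap, with frontal lowest and femur highest, and the calvaria was at -0.91 ± 0.15 on the log2 scale (adjusted p = 0.000214). Ifit3 measured 25.7, 21.5 and 12.9 CPM in femur, 7.75, 8.20 and 10.4 in frontal and 14.6 and 10.7 in parietal bone (-0.92 ± 0.23, adjusted p = 0.00414). Here femur library 4 fell among the skull values, below parietal library 2. Ifit1 was at 37.0, 43.6 and 31.6 CPM in femur, 18.2, 20.7 and 26.8 in frontal and 27.6 and 27.1 in parietal bone, with every skull library below the femur (-0.61 ± 0.16, adjusted p = 0.00593). Ifit3 has a near-identical copy, Ifit3b, and how reads of the pair were assigned is not given in the sources used here.

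Isg15 encodes a ubiquitin-like protein that is attached to other proteins and also secreted. It went against its IFIT neighbours in the group, with 36.9, 43.7 and 49.1 CPM in femur, 55.0, 49.2 and 88.0 in frontal and 59.9 and 74.5 in parietal libraries. The lowest skull value was just above the highest femur value, and the difference (0.60 ± 0.19, adjusted p = 0.0189) was not called without femur library 1, without femur library 2 or without parietal library 4, nor with the length and GC correction, and was -0.25 with spike-in scaling. Usp18, the protease that removes ISG15 from proteins and dampens the interferon receptor, measured 13.2, 15.2 and 19.7 CPM in femur, 14.9, 14.5 and 23.8 in frontal and 14.4 and 20.6 in parietal bone, with overlap and a log2 fold change of 0.13 ± 0.22.

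Of the 5 GTPases, 3 were lower and 1 was higher (31.4% and 29.6% of all genes). The guanylate-binding proteins attack the membranes of pathogens within cells, and the 3 listed here lie in a cluster on chromosome 3. Gbp7 (chr3:142530342-142550149) measured 15.6, 14.7 and 20.5 CPM in femur, 24.2, 41.1 and 28.0 in frontal and 40.0 and 43.8 in parietal libraries. All skull libraries were above the femur (1.09 ± 0.20, adjusted p = 0.000534). Gbp2 (chr3:142620602-142638008) was the reverse, at 36.0, 33.0 and 54.6 CPM in femur, 20.5, 28.0 and 28.3 in frontal and 23.4 and 29.9 in parietal bone, all skull libraries below the femur (-0.66 ± 0.19, adjusted p = 0.0106), though not passing without femur library 4. Gbp3 lies between them (chr3:142560026-142573209) and was at 36.0, 23.3 and 33.6 CPM in femur, 22.9, 23.9 and 25.5 in frontal and 34.4 and 41.7 in parietal bone, with overlap (-0.03 ± 0.16). The Gbp genes are close in sequence, and 11.3% of the exon bases of Gbp7 are shared with the gene model Gm43802, so their counts are uncertain.

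Mx1 and Mx2 encode dynamin-like proteins that trap virus components, and the Mx1 gene of C57BL/6 mice is known to make no working protein. Mx1 measured 7.72, 6.97 and 4.66 CPM in femur, 3.34, 3.05 and 4.06 in frontal and 4.96 and 3.10 in parietal libraries. Mx2 measured 4.80, 2.36 and 5.82 CPM in femur, 3.22, 1.05 and 2.80 in frontal and 1.60 and 1.64 in parietal bone. Both were lower in the calvaria (-0.77 ± 0.26, adjusted p = 0.0211 and -1.14 ± 0.39, adjusted p = 0.0256) at levels of a few CPM and with overlap. Neither call held with upper quartile factors (edgeR adjusted p = 0.0586 for Mx1 and 0.0509 for Mx2), without femur library 1 (0.0696 and 0.0616) or without parietal library 4 (0.0667 and 0.054). The Mx1 call was also lost without femur library 2 (edgeR adjusted p = 0.0793), and the Mx2 call without femur library 4 (0.137) or parietal library 2 (0.0643).

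Of only 5 genes of membrane proteins, 4 were higher and none was lower (29.6% and 31.4% of all genes), with a median log2 fold change of 0.53, although scaling to the spike-in controls turned all 5. The IFITM proteins sit in membranes and hinder the fusion of viruses, and their genes lie close together on chromosome 7. Ifitm1 measured 18.9, 21.3 and 27.0 CPM in femur, 32.4, 24.5 and 39.8 in frontal and 38.0 and 43.8 in parietal libraries (0.69 ± 0.19, adjusted p = 0.00677), and frontal library 2 lay within the femur range. Ifitm2 was at 245, 262 and 334 CPM in femur, 395, 324 and 418 in frontal and 358 and 335 in parietal bone, with overlap (0.37 ± 0.14, adjusted p = 0.0335). That call was lost without femur library 1 or 2, without frontal library 1 or 4, and without either parietal library. Ifitm3 was at 283, 278 and 344 CPM in femur, 362, 289 and 443 in frontal and 382 and 434 in parietal bone and missed the threshold (0.35 ± 0.15, adjusted p = 0.0569). The gene model Gm45717 shares 40.9% of the exon bases of Ifitm2, and the IFITM genes resemble each other, so these values are uncertain.

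Bst2 (tetherin), which holds budding viruses on the cell surface, measured 29.8, 30.8 and 39.6 CPM in femur, 41.4, 46.0 and 36.8 in frontal and 52.8 and 60.5 in parietal libraries. It was higher in the calvaria by 0.53 ± 0.14 (adjusted p = 0.00661), with the parietal libraries above all others and frontal library 4 within the femur range. Rsad2 (viperin), an enzyme that makes a chain-terminating nucleotide against viral polymerases, measured 194, 335 and 300.1 CPM in femur, 447, 405 and 620.5 in frontal and 369.9 and 497 in parietal bone. All skull libraries were above the femur libraries (0.74 ± 0.20, adjusted p = 0.00749), and femur library 1 was the lowest of all. A correction for gene length and GC content turned the direction of Ifitm2 (-0.014) and Ifitm3 (-0.23), and left Ifitm1 and Bst2 above 0 but not passing.

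Among the transcription factors 1 of 9 was higher and 2 were lower, against 29.6% and 31.4% of all genes. Irf4, known for its roles in lymphocytes and plasma cells, measured 15.4, 19.2 and 15.7 CPM in femur, 23.6, 21.7 and 25.9 in frontal and 22.7 and 22.7 in parietal libraries. The skull libraries were all above the femur (0.46 ± 0.15, adjusted p = 0.0176), but the call was lost without femur library 1, femur library 4 or parietal library 4, and spike-in scaling turned it (-0.47). Stat2, the partner of IRF9, measured 33.1, 32.1 and 30.0 CPM in femur, 35.5, 29.6 and 36.6 in frontal and 18.1 and 12.9 in parietal libraries. Its lower mean in the calvaria (-0.47 ± 0.15, adjusted p = 0.0176) came with frontal values among the femur values and parietal values below both, and was not called without femur library 2 (edgeR adjusted p = 0.0517) or parietal library 4 (0.0613), nor with upper quartile factors (0.104). With the length and GC trend removed the log2 difference was -0.036 (adjusted p = 0.855). Irf2, a repressor that competes with IRF1 for its sites, had the same pattern, with 29.2, 38.9 and 40.7 CPM in femur, 41.7, 32.6 and 40.8 in frontal and 20.5 and 20.6 in parietal libraries (-0.37 ± 0.15, adjusted p = 0.0485). That call was lost in 12 of 17 alternatives, among them without femur library 2 or 4, without frontal library 1 or 2, and without either parietal library.

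The other IRFs did not pass. Irf5, which acts below Toll-like receptors, measured 22.3, 27.2 and 36.2 CPM in femur, 42.0, 37.8 and 36.8 in frontal and 31.5 and 29.3 in parietal libraries, the frontal libraries being highest. Irf8, a myeloid factor known to hold back osteoclast formation, measured 70.7, 71.4 and 90.4 CPM in femur, 118, 102 and 92.3 in frontal and 75.1 and 77.4 in parietal bone, again with every frontal library above the others. Irf1, an activator induced by interferon gamma, ranged from 82.4 to 133.6 CPM, Irf3 from 16.5 to 32.9, Irf7 from 24.2 to 53.6 and Irf9 from 48.0 to 81.2, with overlap between skull and femur. IRF3 and IRF7 are the factors that switch on interferon genes themselves. The exons of Irf5 share 14.1% of their bases with Tnpo3 on the opposite strand, and without a stated strand setting the reads of such pairs cannot be told apart.

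Of the RNA sensors and their ligase, 1 of 4 was lower (31.4% of all genes). Trim25, the ubiquitin ligase known to act on the sensor RIG-I, measured 67.1, 58.2 and 71.9 CPM in femur, 60.6, 51.5 and 50.7 in frontal and 27.8 and 37.1 in parietal libraries. The parietal libraries were lowest, and 1 femur library lay within the frontal range (-0.65 ± 0.14 for the calvaria, adjusted p = 0.00143). The sensors themselves did not pass. Ddx58 (RIG-I) measured 30.4, 30.7 and 31.7 CPM in femur, 30.2, 25.3 and 24.8 in frontal and 28.4 and 30.0 in parietal bone, a narrow range with skull below femur (-0.15 ± 0.13, adjusted p = 0.353). Ifih1 (MDA5) measured 19.0, 15.6 and 13.3 CPM in femur, 14.0, 18.8 and 21.2 in frontal and 15.7 and 12.9 in parietal bone. Dhx58 (LGP2) measured 4.97, 8.10 and 10.1 CPM in femur, 10.02, 10.2 and 17.8 in frontal and 9.38 and 8.52 in parietal bone, both with overlap.

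The remaining members were split. Xaf1, which counters an inhibitor of cell death, measured 8.23, 8.57 and 11.5 CPM in femur, 15.5, 18.9 and 23.2 in frontal and 19.3 and 22.6 in parietal libraries, all skull libraries above the femur (1.08 ± 0.19, adjusted p = 0.000508). Parp14, an ADP-ribosyltransferase, measured 25.6, 23.1 and 23.6 CPM in femur, 17.8, 13.4 and 14.4 in frontal and 11.8 and 15.1 in parietal bone, all skull libraries below the femur (-0.75 ± 0.16, adjusted p = 0.00145). Both calls held in 16 of 17 alternatives, the exception being spike-in scaling. Ifi44 was at 3.77, 5.09 and 5.12 CPM in femur, 2.27, 2.19 and 2.66 in frontal and 3.58 and 4.45 in parietal bone (-0.61 ± 0.24, adjusted p = 0.0411), a call lost in 11 alternatives, among them without femur library 2 or 4, frontal library 1 or 2, or parietal library 2. Ifi35 was at 24.4, 25.05 and 21.5 CPM in femur, 24.7, 23.9 and 25.8 in frontal and 23.6 and 21.6 in parietal bone, with a log2 fold change of 0.00 ± 0.13.

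Compared bone by bone against the femur, frontal bone had 10 members higher and 8 lower where 55.7% of all genes were called (27.2% higher and 28.5% lower). Parietal bone had 8 higher and 8 lower where 55.7% were called (27.1% higher and 28.6% lower). The frontal libraries all lay above the femur for 10 members and all below for 9, against 63% of all genes separated (31.4% above and 31.6% below). The parietal libraries did so for 11 and 10 members, against 72% of all genes (36.1% above and 35.9% below). In frontal bone 5 were higher without femur library 1 or without femur library 2 and 6 without frontal library 4. Of all genes in frontal against femur, 49.7% were called without femur library 1, 49.2% without femur library 2 and 50.3% without frontal library 4. Leaving out a parietal library leaves 1, so only medians are given for parietal bone against femur. The members' median was -0.16 without parietal library 4 and -0.11 without parietal library 2, with -0.07 and -0.03 for all genes. The members' medians were 0.17 in frontal and -0.08 in parietal bone, with 0.02 and 0.01 for all genes. These comparisons share the femur libraries, so their values are given side by side only. Oasl1 was at -2.35 in frontal and -2.95 in parietal bone, Isg20 at 1.96 and 1.80, Xaf1 at 1.02 and 1.14, and Gbp7 at 0.88 and 1.31, each passing in both. Ifit1 and Ifit3 passed in frontal bone (-0.78 and -1.19) and missed in parietal bone (-0.45 and -0.65, adjusted p = 0.0767 and 0.0724). Oas3 passed in frontal bone (0.97 ± 0.30, adjusted p = 0.0158) and was at 0.00 in parietal bone, and Irf8 likewise was at 0.43 (adjusted p = 0.0244) and -0.02. Stat2, Irf2 and Trim25 passed in parietal bone (-1.03, -0.82 and -1.02) and not in frontal bone (0.09, 0.07 and -0.28).

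**Figure D3:**
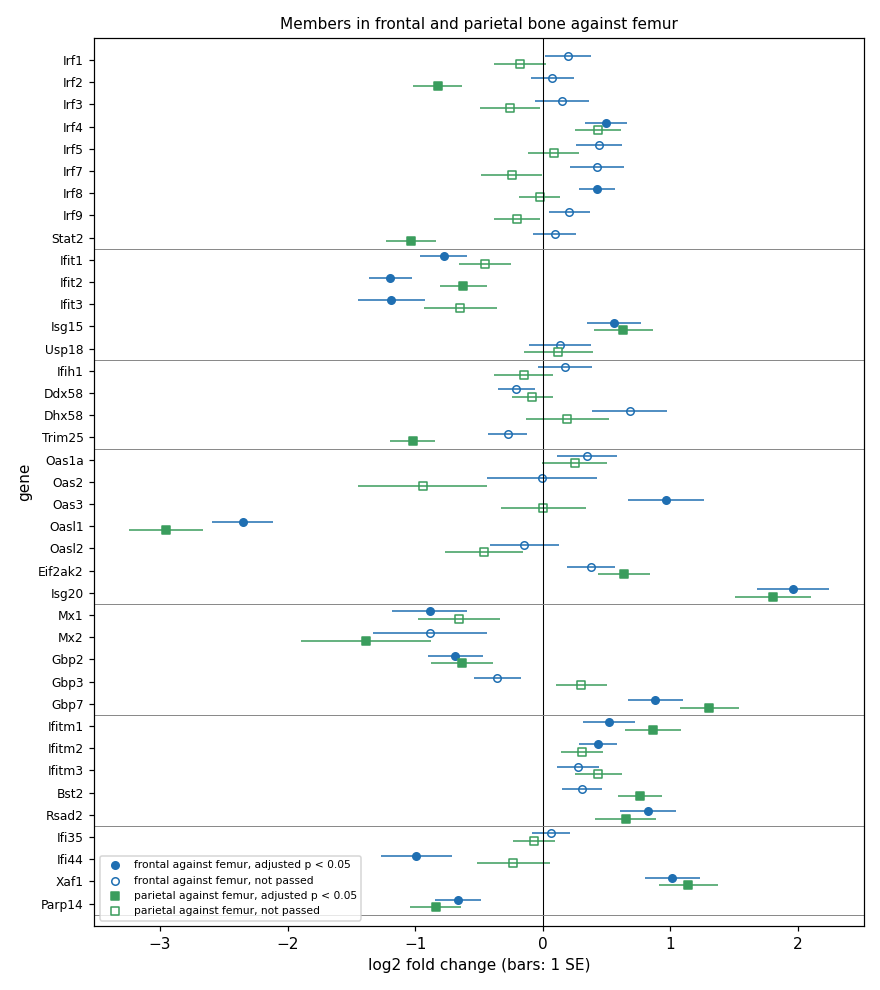
Log2 fold change of each member against the femur (horizontal axis, bars 1 SE) in frontal bone (blue circles) and parietal bone (green squares); filled symbols passed at an adjusted p under 0.05. Oasl1 and Isg20 lie farthest from 0 in both, and Stat2, Irf2 and Trim25 are filled in parietal bone only.

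The direct comparison of frontal with parietal bone called 3 members, all higher in frontal bone, and none lower, where 7.21% of all genes were called (3.91% higher and 3.3% lower). Stat2 was higher by 1.12 ± 0.19 (edgeR adjusted p = 0.0271), Irf2 by 0.90 ± 0.19 (adjusted p = 0.0313) and Trim25 by 0.75 ± 0.17 (adjusted p = 0.0361). For each of these, all 3 frontal libraries lay above both parietal libraries. At an unadjusted p under 0.05 by edgeR there were 7 members higher and 4 lower, where 4459 of 15511 genes reached it. DESeq2 called 4 members higher and 1 lower (Gbp3), where it called 13.9% of all genes. All 3 calls were lost without femur library 2, without frontal library 1 and without either parietal library, and without any of these libraries edgeR called 0 of all genes tested (2520 to 4059 at an unadjusted p under 0.05). All 9 transcription factors had a log2 fold change above 0 here, from 0.06 (Irf4) to 1.12 (Stat2), but 7 of the 9 did not pass. Above 0 were 24 of the 39 members and 7475 of all 15511 genes. By role these were 6 of 7 RNA-acting enzymes, but 1 of 5 in the IFIT family and ISG15 system and 1 of 5 GTPases. All of these values rest on the same 2 parietal libraries. For 12 members the frontal libraries all lay above the parietal ones and for 6 all below, where 47.5% of all genes were separated (21.9% above and 25.6% below). The Oas3 and Gbp3 differences between frontal and parietal bone, 0.96 ± 0.33 and -0.66 ± 0.20, missed the threshold (adjusted p = 0.0883 and 0.0638).

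Levels can be ranked between genes only per length, here as CPM per kb of exons averaged over the 3 bones. Ifitm3 (528) and Ifitm2 (512) led, with overlapping libraries in femur and frontal bone and Ifitm3 higher in both parietal libraries. They were followed by Isg20 (114), Rsad2 (92.3), Isg15 (76.9), Bst2 (48.5), Ifitm1 (29.1) and Irf1 (26.03). This order is of the mean over bones: in the femur Isg20 lay below Rsad2 (63.7) and Isg15 (57.2), and Ifitm1 (20.5) below Irf1 (25.8). Irf1 was the highest transcription factor gene, ahead of Irf8 (12.2), Irf5 (11.2) and Irf9 (11.1), which were close. Ifi44 (0.601), Mx2 (0.766) and Oas2 (0.884) were lowest. In the femur Oasl1 stood at 14.0 CPM per kb, near Ifit1 at 14.1, while in parietal bone it stood at 1.80 against 10.3 for Ifit1. Isg20 stood at 40.8 CPM per kb in femur, 159 in frontal and 143 in parietal bone. The median exon length was 3097 bases for the members higher in the calvaria, 3856 for those lower and 3776 for the rest. Over all genes tested the medians were 3028 bases for those higher and 5151 for those lower.

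Listed members that lie close together in the genome, in some pairs with other genes between, were compared within each library, where the ratio of their counts does not depend on scaling. There were 10 such pairs with a gap of at most 150000 bases, formed after the values were known. Oasl2 (chr5:114896936-114912234) and Oasl1 lie 11006 bases apart, and their log2 count ratio (Oasl2 over Oasl1) was -1.23, -1.14 and -0.71 in femur libraries 1, 2 and 4. It was 0.80, 1.11 and 1.48 in frontal bone and 0.87 and 1.92 in parietal bone, so Oasl1 had more counts in every femur library and Oasl2 in every skull library. The ratio of Gbp7 to Gbp3 was likewise below 0 in every femur library (mean -0.86 ± 0.30, SD) and above 0 in every skull library (0.26 ± 0.30, SD). For Ifitm1 over Ifitm3 the means were -3.76 ± 0.13 (SD) in femur and -3.43 ± 0.11 (SD) in the skull, without overlap. Each of these 3 pairs gave p = 0.0179 by a two-sided exact permutation test of 5 skull against 3 femur libraries, the smallest p it allows, or 0.0595 adjusted over the 10 pairs, which does not pass. With 10 pairs, 3 at this smallest p could not pass by themselves, so the adjusted value decides nothing here. Some pairs also share a member. The ratios of Ifit2 to Ifit3 and of Ifit3 to Ifit1 overlapped between skull and femur.

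**Figure D4:**
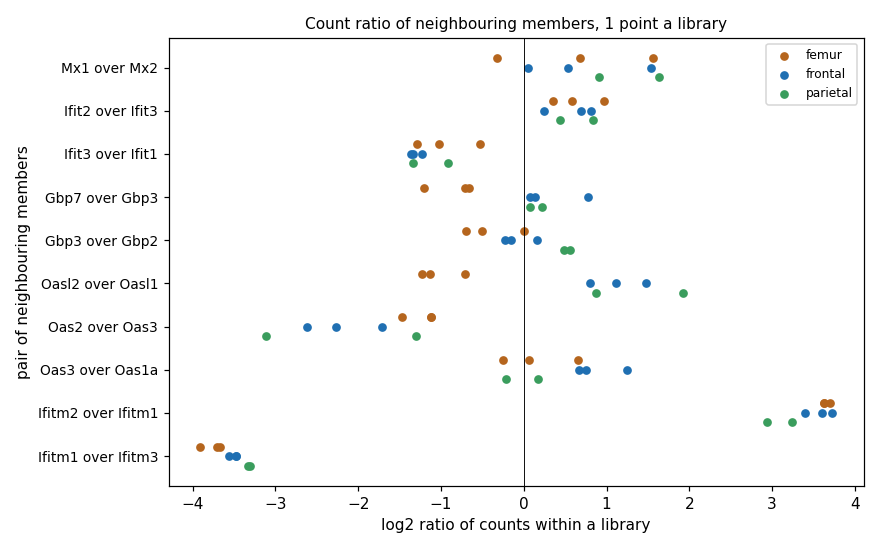
Log2 ratio of counts within a library (horizontal axis) for 10 pairs of neighbouring members; each point is a library, coloured by bone. Oasl2 over Oasl1 and Gbp7 over Gbp3 lie below 0 in the 3 femur libraries and above 0 in the 5 skull libraries, whereas Ifit2 over Ifit3 overlaps.

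The rest of the pathway was followed by lists of ligands, receptors and signal carriers, nucleic acid sensors and antigen presentation genes, whose counts stand against 29.6% higher and 31.4% lower among all genes tested and a median of 0.01. Interferon genes themselves were barely counted: of 9 listed, only Ifng passed the filter, and through the skull libraries alone. Its raw counts were 2, 4 and 5 in the femur, 17, 22 and 22 in frontal bone and 33 and 10 in parietal bone. Ifnb1 had 0 to 6 counts in any library. Of 14 receptor and JAK-STAT genes, 3 were higher and 6 lower in the calvaria, with a median of -0.23. The receptor chains for type I interferon, Ifnar1 (-0.18) and Ifnar2 (0.02), did not pass, while Ifngr1, a chain of the interferon gamma receptor, was higher by 0.81 ± 0.11. Stat3, which carries the signal of many cytokines, was at 594, 540.5 and 578 CPM in femur, 244, 185 and 218 in frontal and 138 and 133 in parietal bone (-1.74 ± 0.11, adjusted p = 2.84e-07). The feedback inhibitors Socs1 (-1.78 ± 0.18) and Socs3 (-1.37 ± 0.14) and the kinase Jak2 (-0.999 ± 0.16) were also lower.

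Of 16 listed genes of nucleic acid sensing, 13 were tested, 4 were higher and 3 lower, with a median of 0.09. The nucleotide hydrolase Samhd1 was higher (1.14 ± 0.16), the adaptors Traf3 (-0.92 ± 0.13) and Ticam1 (-1.42 ± 0.23) were lower, and the adaptor Tmem173 (STING) was higher (0.67 ± 0.14). Of 10 antigen presentation genes induced by interferon gamma, 4 were higher and 1 lower in the calvaria, with a median of 0.03 over skull bones that differed. The immunoproteasome subunits were all among the higher ones: Psmb9 (1.51 ± 0.19), Psmb10 (1.25 ± 0.17) and Psmb8 (1.20 ± 0.16). B2m, the light chain of class I molecules, was higher as well (0.89 ± 0.13), while Tapbp, which loads peptides, was lower (-0.68 ± 0.12). Tap1, Tap2, Nlrc5, Ciita and Cd74 did not pass in calvaria against femur. In frontal bone 5 of the 10 were higher and 1 lower (27.2% and 28.5% of all genes), with a median of 0.42 and Cd74 higher. In parietal bone 4 were higher and 4 lower (27.1% and 28.6%), with a median of -0.37 and Tap1, Tap2 and Nlrc5 lower. Frontal against parietal called 3 higher (Tap1, Tapbp and Cd74) and 0 lower (3.91% and 3.3% of all genes). Without femur library 2 or frontal library 1 it called 0 genes.

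Markers of other cell types moved between the bones beside these values. Their counts in calvaria against femur stand against 29.6% higher and 31.4% lower among all genes tested. B cell genes took 0.0159 to 0.0234% of counts in femur and 0.0539 to 0.0717% in skull libraries, and 5 of 6 were higher. T and NK cell genes took 0.00390 to 0.00789% and 0.0180 to 0.0250%, with 5 of 6 higher. Monocyte and macrophage genes took 0.0501 to 0.0726% and 0.134 to 0.166%, with 5 of 7 higher and 1 lower. Genes listed for plasmacytoid dendritic cells, the main interferon producers of the blood, took 0.0172 to 0.0185% and 0.0140 to 0.0155%. Of these, Siglech (1.78 ± 0.16), Ccr9, Klk1 and Cox6a2 were higher in the calvaria, while Tcf4 and Pacsin1 were lower. How particular any of the 6 is to these cells was not tested. Endothelial genes took 0.0454 to 0.0534% and 0.0211 to 0.0268%, with 6 of 6 lower. Plasma cell genes took 0.0603 to 0.0952% and 0.0587 to 0.123%, with 1 of 5 higher and 3 lower. Osteoblast genes took 3.91 to 5.28% and 0.333 to 2.03%, with 6 of 7 lower. Osteoclast genes took 0.0996 to 0.238% and 0.208 to 0.406%, with 3 of 6 higher and 0 lower. The 39 members together took 0.159 to 0.211% of counts in femur and 0.220 to 0.303% in skull libraries, a sum led by Rsad2, Ifitm2, Ifitm3 and Isg20. No marker of any list was at 0 in all femur or all skull libraries.

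**Figure D5:**
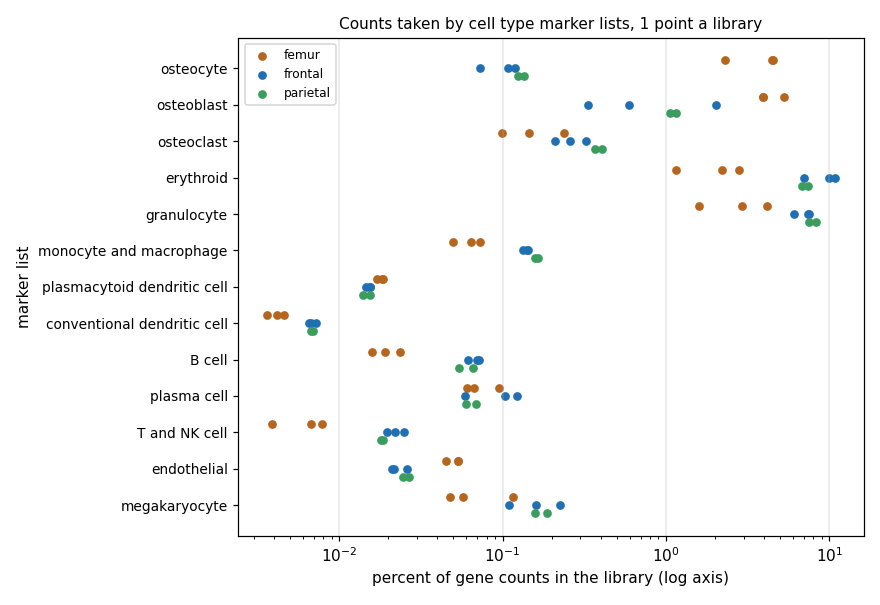
Share of each library's gene counts (horizontal log axis, percent) taken by 13 lists of cell type markers; each point is a library, coloured by bone. Osteocyte and endothelial markers are higher in the 3 femur libraries, and erythroid, granulocyte, B cell and T and NK cell markers are higher in the 5 skull libraries.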

How the data were processed

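Nextera XT libraries of total RNA were sequenced from both ends, per the labels' protocols. The authors deposited raw counts, whole numbers per gene with no normalization, and these were used as deposited; 92 spike-in rows were set aside. Per the submitters' processing notes the tools included limma, edgeR, DESeq2 and STAR 2.5.2a, and the builds were mm10 and GRCm38.p3. How reads were counted (the tool, its strand setting, the annotation) is not given in the sources used here. Symbols matched 42462 of 43346 genes, and gene positions are those of GENCODE M21 (GRCm38).

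Counts were fitted with edgeR 4.0.16 (robust quasi-likelihood, TMM, filterByExpr) in R 4.3.3 on all 8 libraries with bone as the term, leaving 5 residual degrees of freedom, with Benjamini-Hochberg adjustment across the 15511 genes tested. The biological coefficient of variation was 18.6%. On simulated counts for the calvaria against femur comparison, with 15114 genes, the fit recovered 89.8% of genes changed 4-fold and 53.6% of those changed 2-fold, with 9 false calls. Only a small part of the genes was changed in the simulation, where the data called 61%, so these rates need not hold for the data. Alternatives were DESeq2 1.42.0, limma 3.58.1 (voom), other scalings, no filter, a length and GC correction, a replicate block and leaving out each library. Library numbers were not taken to pair the libraries. Correlations of deviations ran from -0.10 to 0.15 between same-numbered libraries of different bones and from -0.15 to 0.17 between the others. The 2 parietal libraries mirror each other here by construction, so these ranges cannot decide whether the numbers pair the libraries. Of each role group, up to 5 members with the smallest p for calvaria against femur are given in every library, and up to 4 genes of each other pathway list are named by the same rule; other pathway genes named (Ifnb1, Ifnar1, Ifnar2, Jak2, Tapbp and genes that did not pass) and neighbour pairs were chosen after their values were seen. The rule for the members uses no measured value, but members and lists were chosen with earlier results of these data known. 1 gene of the receptor and JAK-STAT list is not reported here.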

Additional observations from a re-analysis of the deposited data

Results flagged for a closer look

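The 3 members below differed between frontal and parietal bone by edgeR's test of that difference, with 3 and 2 libraries. Stat2 had a log2 fold change of 1.12 (frontal over parietal), Irf2 of 0.90 and Trim25 of 0.75. Each was lower in parietal bone than in femur and did not pass between frontal bone and femur. All 3 calls were lost with the replicate block, with spike-in scaling and with the length and GC correction. They were also lost without femur library 2, without frontal library 1 or without either parietal library. The log2 fold change stayed above 0 in all 17 alternatives (0.90 to 1.68 for Stat2, 0.84 to 1.46 for Irf2 and 0.58 to 1.34 for Trim25). All 3 frontal libraries lay above both parietal ones, so leaving out a library could hardly turn the sign. Spike-in scaling moved the median of all genes to 0.585 here. The constant sign therefore adds little to the calls.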

How the results depend on the processing

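In calvaria against femur, spike-in scaling gave 0 members higher and 3 lower with a median log2 fold change of -0.74, and upper quartile factors gave 7 lower with a median of 0.18. Over all genes tested, spike-in scaling gave 30 higher and 3113 lower (median -0.838), and upper quartile factors 4135 lower (median 0.185). In frontal against femur, spike-in scaling gave 0 higher and 1 lower (0 and 3 at an unadjusted p under 0.05 by edgeR) with a median of -0.32. Over all genes it gave 28 higher and 1111 lower (3078 unadjusted) with a median of -0.527. Upper quartile factors gave 16 higher with a median of 0.34, and library size alone gave a median of 0.31. For all genes these were 5152 higher with a median of 0.187, and a median of 0.159. The members' median minus that of all genes was 0.151 in the main fit, 0.152 with upper quartile factors and 0.153 by library size. It was 0.209 with spike-in scaling and -0.0023 with the length and GC correction. In parietal against femur, spike-in scaling gave 0 higher and 1 lower (0 and 8 unadjusted) with a median of -1.24, upper quartile factors gave 5 lower with a median of 0.10, and the length and GC correction gave a median of 0.055. For all genes spike-in scaling gave 11 higher and 1682 lower (4433 unadjusted) with a median of -1.15. Upper quartile factors gave 3752 lower with a median of 0.187, and the length and GC correction a median of 0.078. In frontal against parietal, 0 were higher with spike-in scaling (0 unadjusted, median 0.74) and with the length and GC correction (4 unadjusted), 5 without a filter on low counts, and 1 was lower by DESeq2. Of all genes, 0 were higher with spike-in scaling (median 0.585) and 55 with the length and GC correction. Without a filter 1163 were higher, and 1007 were lower by DESeq2. The cause of these changes was not tested.

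Leaving out each femur or frontal library in turn gave 6 to 12 members higher in calvaria against femur and 5 to 13 in frontal against femur. It gave 6 to 9 higher and 8 to 9 lower in parietal against femur, and 0 to 5 higher in frontal against parietal. In the same order of comparisons, these fits called 54.3 to 62%, 49.2 to 54.7%, 50.2 to 57.9% and 0 to 12.9% of all genes. Leaving out either parietal library left a lone one, which was assumed to vary like the other groups. With the replicate block, 11 members were higher and 10 lower in calvaria against femur, 11 and 8 in frontal against femur, and 6 and 7 in parietal against femur. Of all genes it called 57.4%, 52.6% and 49.6% in these comparisons. In frontal against parietal it gave 0 and 0 (8 and 2 unadjusted by edgeR), where it called 0 genes in all. The library numbers were not shown to pair the libraries.

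Apart from spike-in scaling, the calvaria against femur values of 10 of the 17 members with no call, and of Ifitm2, turned in at least 1 alternative. By DESeq2 they were -0.00069 for Irf1, -0.0072 for Irf9, -0.0028 for Ifih1 and -0.012 for Ifi35, and with its size factors in edgeR -0.00075, -0.0072, -0.0030 and -0.012. Limma-voom gave -0.00096 for Irf9 and 0.012 for Gbp3, and the replicate block 0.0094 for Gbp3. Library size alone gave 0.040 for Irf3 and 0.071 for Gbp3. Upper quartile factors gave 0.12 for Irf3, 0.028 for Ddx58 and 0.15 for Gbp3. The length and GC correction gave 0.44 for Irf3, 0.087 for Ddx58, -0.014 for Ifitm2, -0.23 for Ifitm3 and -0.088 for Ifi35. Leaving out a library gave -0.14 to 0.20 for Irf1, -0.23 to 0.085 for Irf3, -0.13 to 0.32 for Irf7, -0.095 to 0.074 for Irf9, -0.033 to 0.29 for Usp18, -0.11 to 0.12 for Ifih1, -0.21 to 0.067 for Gbp3 and -0.069 to 0.039 for Ifi35.

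Spike-in scaling, resting on 0.0286 to 0.176% of each library's counts, turned 19 members: Irf1 (-0.74), Irf4 (-0.47), Irf5 (-0.54), Irf7 (-0.74), Irf8 (-0.61), Irf9 (-0.80), Isg15 (-0.25), Usp18 (-0.67), Ifih1 (-0.82), Dhx58 (-0.35), Oas1a (-0.59), Oas3 (-0.25), Eif2ak2 (-0.32), Ifitm1 (-0.13), Ifitm2 (-0.44), Ifitm3 (-0.47), Bst2 (-0.25), Rsad2 (-0.23) and Ifi35 (-0.90). Ifit2, Ifit3 and Oasl1 stayed lower and past the threshold in all 17 alternatives, and Ifit1, Trim25, Isg20, Gbp7, Xaf1 and Parp14 kept direction and call in all but spike-in scaling. Counts of a few CPM limit Mx1, Mx2, Oas2 and Ifi44.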
